A study of Mus musculus with 2 samples.

Results

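The genes described here were 10 that are known from basophils and mast cells: Gata2, Mcpt8, Prss34, Cpa3, Hdc, Fcer1a, Ms4a2, Cd200r3, Il2ra and Kit. They were taken by symbol from the 32285 genes of the count files, and had been chosen because earlier results of these data showed where they are high. All of their levels are therefore descriptions without a test. The question was which of them are shared by cells with many Mcpt8 transcripts and by Mcpt8-low cells that carry Il2ra, and which are not. Myeloid-derived suppressor cells (MDSC) had been grown for 4 days from the marrow of 10-week-old C57BL/6 females, with GM-CSF at 50 ng/mL and IL-6 at 50 ng/mL. The DAB culture also held 1.5 µmol/L dabrafenib (DAB), a BRAF inhibitor, and the DMSO culture the same volume of the solvent. The cultures gave 1 10x Genomics 5′ single-cell RNA library each, and how many mice a library stands for is not stated in the sources used here.

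Basophils and mast cells are granulated cells that bind IgE through a receptor made of the alpha chain Fcer1a, the beta chain Ms4a2 and the gamma chain Fcer1g, and that release histamine when the bound IgE is crosslinked. Both depend on the transcription factor GATA2. Basophils of the mouse are told apart by the proteases Mcpt8 and Prss34, and mast cells by the stem cell factor receptor Kit and by chymases and tryptases, while carboxypeptidase Cpa3 and histidine decarboxylase Hdc occur in both.

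After filtering, 9032 DMSO cells (91958042 unique molecular identifiers, UMIs; median 7495 per cell) and 10477 DAB cells (139344529 UMIs; median 9369) were kept, of which 117 barcodes were shared by the libraries. Levels are given as CPM, the UMIs of a gene per 1e6 UMIs of a group of cells, and were compared within a gene, not between genes. Intervals are exact at 95% and hold only the error of counting. Since each condition has a single library, no difference between DAB and DMSO could be tested against replicates.

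Over all kept cells, 7 of the 10 genes were higher in the DAB library and none was lower, by the rule of a log2 ratio of at least 0.5 with an interval without 0. By the same rule 13.8% of 16371 genes were higher and 16.5% were lower, and the median log2 ratio of all genes was -0.02. Cpa3 had 4.28 CPM (3.87 to 4.73) with DMSO and 30.8 CPM (29.9 to 31.8) with DAB, a log2 ratio of 2.85 (2.697 to 2.999). For Hdc the level went from 19.0 to 93.4 CPM, a log2 ratio of 2.30 (2.23 to 2.37). Both genes serve the granules, 1 as a stored protease and 1 as the enzyme that makes histamine. The receptors Il2ra and Cd200r3 had 17.2 and 15.9 CPM with DMSO and 58.0 and 38.0 CPM with DAB, log2 ratios of 1.75 (1.67 to 1.83) and 1.26 (1.17 to 1.34). Gata2 had 21.0 and 48.2 CPM, a log2 ratio of 1.20 (1.12 to 1.27). Among the IgE receptor chains, Fcer1a had 0.533 and 1.22 CPM and Ms4a2 1.40 and 2.66 CPM, with 49 and 129 UMIs in the whole DMSO library. The basophil proteases did not go with them. Mcpt8 had 24.2 CPM with DMSO and 23.1 CPM with DAB, a log2 ratio of -0.06 (-0.14 to 0.02), and Prss34 had 61.9 and 76.2 CPM, a log2 ratio of 0.30 (0.25 to 0.35). Kit, the receptor of stem cell factor, had 6.39 and 6.71 CPM (log2 ratio 0.07, -0.08 to 0.22).

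**Figure D1:**
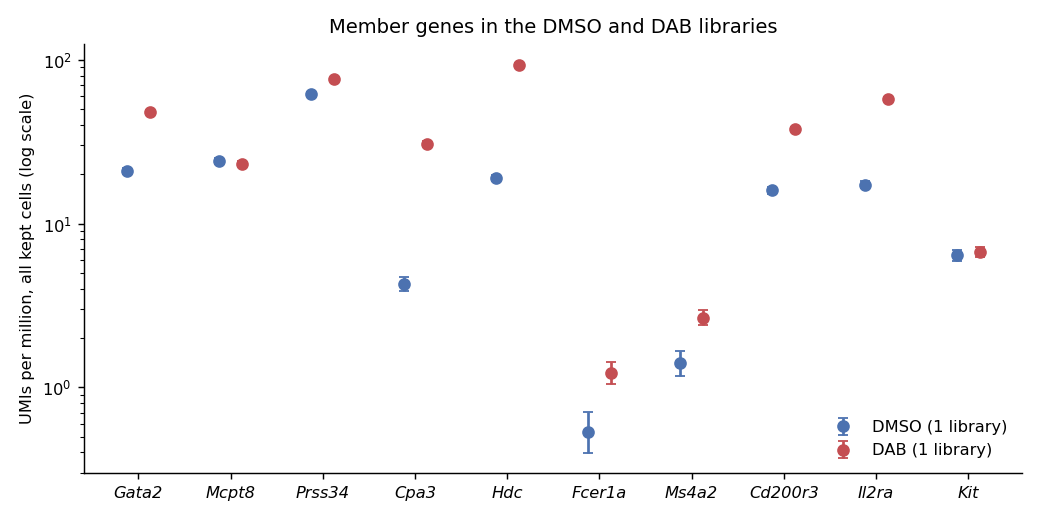
Level of each gene in the DMSO and the DAB library, in CPM over all kept cells on a log axis. Points are 1 library each and bars are exact 95% Poisson intervals; Cpa3, Hdc and Il2ra lie farthest apart, at 4.28 against 30.8, 19.0 against 93.4 and 17.2 against 58.0.

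The cells behind these levels differed from gene to gene. Prss34 UMIs came from 74 DMSO and 144 DAB cells, and up to 514 and 727 lay in 1 cell. The highest 1% of cells held all Mcpt8, Prss34, Fcer1a, Ms4a2 and Cpa3 UMIs of the DMSO library, but 63.9% of those of Hdc, 50.3% of those of Gata2 and 39.3% of those of Kit. In the DAB library the highest 1% held 35.4% of Hdc and 26.7% of Gata2 UMIs. Hdc and Gata2 were thus spread more widely with DAB, also at equal depth: after thinning every cell to 1500 UMIs (436 DMSO and 292 DAB cells were shallower and left out), the share of cells with an Hdc UMI was 1.91% with DMSO and 7.54% with DAB, and that with a Gata2 UMI 1.73% and 4.32%. Without thinning these shares were 6.42% and 26.0% for Hdc, and 5.68% and 15.7% for Gata2.

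A pair of gates was set on the UMIs of single cells. Mcpt8-high cells had at least 10 Mcpt8 UMIs. Mcpt8-low Il2ra-positive cells had fewer than 10 Mcpt8 UMIs and at least 2 UMIs each of Il2ra and of Cd200r3; the second gene was required because activated dendritic cells and lymphocytes also carry Il2ra. Mcpt8, Il2ra and Cd200r3 are therefore high or low in a gate by construction. Few cells lay near the Mcpt8 limit: 8 DMSO and 11 DAB cells had 5 to 9 Mcpt8 UMIs, 6 and 8 cells had 10 to 14, and 8958 and 10307 cells had none.

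The DMSO library held 43 Mcpt8-high cells (0.476%, 0.345 to 0.641) and the DAB library 56 (0.535%, 0.404 to 0.694), a log2 ratio of shares of 0.17 (-0.43 to 0.78). Mcpt8-low Il2ra-positive cells were 69 (0.764%, 0.595 to 0.966) and 393 (3.75%, 3.40 to 4.13), 4.91-fold more with DAB (log2 ratio 2.30, 1.92 to 2.69). The gates differed in depth, with median UMIs of 7685 and 10049.5 in Mcpt8-high cells, 21450 and 27209 in Mcpt8-low Il2ra-positive cells, and 7442 and 8851.5 in the remaining cells. A limit of 2 UMIs is passed more easily by deep cells, and with the gates set on 1500 UMIs per cell only 1 DMSO and 6 DAB cells were Mcpt8-low and Il2ra-positive. Before doublets were removed the gates held 48 and 66, and 80 and 454 barcodes, of which 5 and 10, and 11 and 61, were called doublets. In the whole libraries 768 of 9855 and 1065 of 11631 barcodes were. The kept cells had median doublet scores of 0.44 and 0.46 in the first gate and 0.66 and 0.62 in the second. In the remaining cells the score was 0.52 in both libraries. The part of doublets left in the second gate was not tested.

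Which genes a gate carried was read from a level at least 10-fold over the remaining cells in both libraries. Mcpt8-high cells carried 8 of the 10 genes, all but Il2ra and Kit, where 1.03% of all 16371 genes passed the rule. The Mcpt8-low Il2ra-positive cells carried Cpa3, Cd200r3 and Il2ra, where 0.134% of all genes passed. Cd200r3 and Il2ra set this gate, as Mcpt8 set the first, so that their passing was given in advance. Of the genes that did not set it, the second gate carried only Cpa3 among the 10. Only Cpa3 and Cd200r3 were carried by both gates, and 0.0244% of all genes were, which is 4 genes. The others, named after their values were seen, were Il4, a cytokine of basophils, and the aldo-keto reductase Akr1c12. Il4 had 119 and 117 CPM in Mcpt8-high cells (DMSO and DAB), 7.86 and 18.3 CPM in Mcpt8-low Il2ra-positive cells, and 0.722 and 1.18 CPM in the remaining cells. At a limit of 5-fold, chosen after seeing the data, Mcpt8-high cells carried the same 8 genes (1.76% of all genes), and Mcpt8-low Il2ra-positive cells carried 5 (0.348%). Gata2 and Hdc then joined the shared genes, so that 4 of the 10 were carried by both gates (0.11%).

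Gata2 was found in most cells of both gates. The level was 1324 CPM (1208 to 1448) with DMSO and 839 CPM (775 to 907) with DAB in Mcpt8-high cells, 214 CPM (192 to 239) and 203 CPM (195 to 212) in Mcpt8-low Il2ra-positive cells, and 12.5 and 29.97 CPM in the remaining cells. The second gate thus lay 17.1-fold and 6.78-fold over the remaining cells, and missed the 10-fold rule in the DAB library alone. Per cell, Mcpt8-high cells had from 4 to 26 Gata2 UMIs with DMSO (median 10) and from 0 to 34 with DAB (median 11), and Mcpt8-low Il2ra-positive cells from 0 to 21 and from 0 to 42 (median 4 in both). The cells of the second gate were deeper. As CPM of single cells, Gata2 ran from 609 to 3439.9 (median 1274) in the first and from 0 to 701 (median 187) in the second gate with DMSO, which overlapped little. With DAB it ran from 0 to 2712 (median 957) and from 0 to 954 (median 164), which overlapped more. A UMI was found in 100.0% and 98.2% of Mcpt8-high cells and in 89.9% and 88.0% of Mcpt8-low Il2ra-positive cells. After thinning these shares were 90.7%, 67.9%, 24.6% and 24.9%. In cells that should lack Gata2, the B cell-like cluster (median 3958 and 4906 UMIs), 0 of 141 DMSO cells held a UMI (3 counts, the floor for a count of 0, would be 2.13%) and 0.524% of the DAB cells did. In the mature PMN-like clusters (median 3848.5 and 3903.5 UMIs) it was 0.417% and 1.59%.

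Of the gates, only the first held the basophil proteases Mcpt8 and Prss34 at more than a trace. Prss34, a serine protease of basophil granules, had 15394.5 CPM with DMSO and 12860 CPM with DAB in Mcpt8-high cells, from 1 to 514 and from 0 to 727 UMIs per cell (median 99 and 111.5). Not a single Prss34 UMI was counted in the 69 and 393 Mcpt8-low Il2ra-positive cells, where 3 counts over the group, the floor used for groups without a UMI, would be 1.97 and 0.270 CPM. Against this floor the first gate was at least 12.93 and 15.54 higher on the log2 scale. The remaining cells had 1.29 and 7.35 CPM, and among them 3 DMSO and 9 DAB cells held at least 10 Prss34 UMIs, with up to 347 in 1 cell. Mcpt8, which the gates used, had 5923 and 3996 CPM in the first gate, and 1 and 20 UMIs in the second (0.655 and 1.80 CPM), beside 0.822 and 1.53 CPM in the remaining cells. All 43 DMSO and 54 of the 56 DAB Mcpt8-high cells held both proteases.

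The IgE receptor chains followed the same split. Fcer1a, the chain that binds IgE, had 42 UMIs in 19 of 43 Mcpt8-high DMSO cells (116 CPM) and 134 UMIs in 29 of 56 DAB cells (178 CPM), and no UMI in either library among Mcpt8-low Il2ra-positive cells. Ms4a2, the chain that strengthens signalling and surface expression, had 295 and 337 CPM in Mcpt8-high cells, against 0 and 18 UMIs (1.62 CPM in DAB) in the second gate. Both chains were seen together in 16 DMSO and 27 DAB Mcpt8-high cells and neither in 7 and 8. In the second gate, all 69 DMSO and 384 of 393 DAB cells had neither. The gamma chain Fcer1g, which other Fc receptors also use, did not differ in this way, with 1865 and 2234 CPM in the first gate, 1491 and 1640 CPM in the second and 1740 and 1951 CPM in the remaining cells.

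Cpa3 passed the rule for both gates, but rested on few cells in the second. In Mcpt8-high cells the level was 618 CPM (540 to 704) with DMSO and 2214 CPM (2109 to 2323) with DAB, and 29 of 43 and 51 of 56 cells held a UMI. Of the 1667 Cpa3 UMIs of the DAB cells, 486 lay in 1 cell of 54404 UMIs that held no Prss34 UMI. In Mcpt8-low Il2ra-positive cells it was 38.0 CPM (28.9 to 49.1) and 134 CPM (127 to 141), but only 3 of 69 and 40 of 393 cells held a UMI. There, 2 DMSO and 22 DAB cells with at least 10 Cpa3 UMIs accounted for 96.6% and 96.4% of the Cpa3 UMIs of the gate. Without these cells, an alternative added after seeing the data, the second gate had 1.09-fold and 0.58-fold the level of the remaining cells, and Cd200r3 was then the only gene carried by both gates.

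Histidine decarboxylase differed between the libraries in the second gate. Hdc had 1928 and 2037 CPM in Mcpt8-high cells, from 0 to 64 UMIs per cell with DMSO (median 11) and from 3 to 145 with DAB (median 20.5). Mcpt8-low Il2ra-positive cells had 55.1 CPM (43.9 to 68.2) with DMSO, where 44.9% of cells held a UMI, and 371 CPM (360 to 382) with DAB, where 80.2% did. The remaining cells had 10.7 and 57.7 CPM, so the second gate was 5.15-fold and 6.42-fold above them. After thinning, 7.25% and 30.8% of the cells of the second gate held an Hdc UMI, against 1.53% and 6.14% of the remaining cells. The unthinned share was 3.81% and 15.1% in mature PMN-like cells, and 0 of 141 DMSO and 1.57% of DAB cells in the B cell-like cluster.

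Among the surface receptors, Cd200r3, an activating receptor of the CD200 receptor family, was high in both gates. Its level was 585 CPM (509 to 669) and 882 CPM (816 to 952) in Mcpt8-high cells, which were not gated on it, and 298 and 244 CPM in Mcpt8-low Il2ra-positive cells, which were. The remaining cells had 8.86 and 15.1 CPM. Il2ra, the alpha chain of the interleukin-2 receptor, had 1 UMI in the 43 DMSO cells of the first gate (2.76 CPM). In 13 of its 56 DAB cells it had 33 UMIs (43.8 CPM, 30.2 to 61.6), of which 13 UMIs lay in 1 cell. This was 0.235-fold (0.00595 to 1.31) and 1.82-fold (1.25 to 2.57) the level of the remaining cells. In the second gate it had 345 and 448 CPM by construction, and the log2 ratio of the first gate over the second was -6.97 (-12.27 to -4.48) and -3.35 (-3.89 to -2.86). Kit had 0 and 1 UMI in Mcpt8-high cells and 0 and 7 UMIs in Mcpt8-low Il2ra-positive cells. For the second gate this was under the 6.53 and 7.27 CPM of the remaining cells, with a floor of 1.97 CPM for DMSO and an upper limit of 1.30 CPM for DAB. For the first gate the floor of 8.28 CPM for DMSO and the upper limit of 7.40 CPM for DAB lay above the level of the remaining cells, so a difference was not detectable at this depth.

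**Figure D2:**
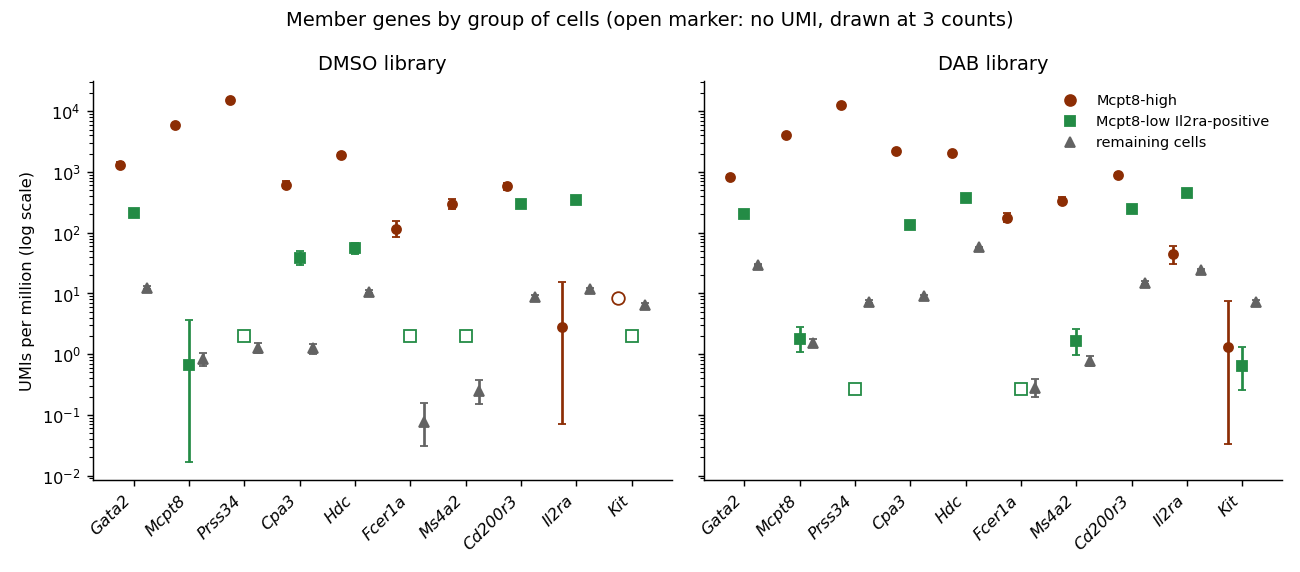
Level of each gene in Mcpt8-high cells, Mcpt8-low Il2ra-positive cells and the remaining cells of each library, in CPM on a log axis with exact 95% Poisson intervals. Open markers are groups without a UMI, drawn at the level of 3 counts; Prss34 stood at 15394.5 and 12860 in Mcpt8-high cells and at no UMI in Mcpt8-low Il2ra-positive cells.

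Compared directly, 7 of the 10 genes were at least 2-fold higher in Mcpt8-high than in Mcpt8-low Il2ra-positive cells in both libraries (Gata2, Mcpt8, Prss34, Cpa3, Hdc, Fcer1a and Ms4a2), and 1, Il2ra, was lower. Over 11006 genes with at least 20 UMIs in the gates, 6.71% were higher and 4.92% were lower. Mcpt8 and Il2ra set the gates, so their places in these counts are descriptions. The smallest of the 7 differences were those of Gata2, with log2 ratios of 2.63 (2.42 to 2.83) with DMSO and 2.05 (1.92 to 2.18) with DAB. For Cpa3 the ratios were 4.02 and 4.05, and for Hdc 5.13 with DMSO and 2.46 with DAB. Cd200r3 passed the size of 1 in the DAB library alone (0.97 and 1.85). Single cells held from 5 to 8 of the 10 genes with DMSO (median 7) and from 4 to 9 with DAB (median 8) in the first gate, and from 2 to 5 (median 3) and from 2 to 6 (median 4) in the second.

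**Figure D3:**
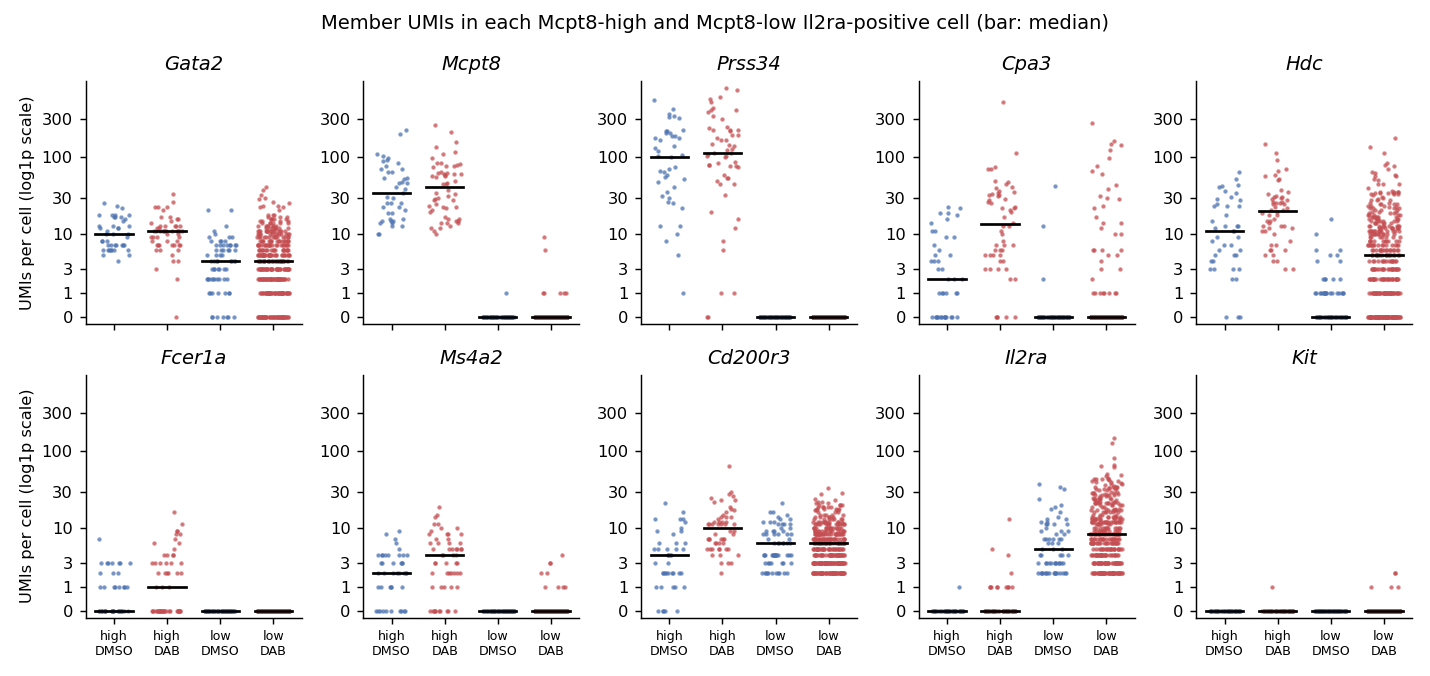
UMIs of each gene in every cell of the gates (high, Mcpt8-high, 43 DMSO and 56 DAB cells; low, Mcpt8-low Il2ra-positive, 69 and 393 cells), on a log1p axis, with 1 point per cell spread sideways at random and the median as a bar. The raw UMIs of Gata2 and Cd200r3 overlap between the gates, whose depths differ, Prss34, Fcer1a and Ms4a2 do not reach beyond 4 UMIs in the second gate, and Cpa3 there is at 0 in most cells with 22 DAB cells at 10 or more.

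The stretches before the start sites of genes that the gates share or do not share are shown because GATA2, a factor that binds GATA motifs, is itself one of the 10 genes. They are the 250 bases before the RefSeq start site (GRCm38.p6), 5′ to 3′ on the strand of the gene, with each GATAA or its reverse complement TTATC in capitals. Cpa3 lies at chr3:20242182-20242431 (minus strand), Cd200r3 at chr16:44943428-44943677 (plus), Prss34 at chr17:25298144-25298393 (plus), Ms4a2 at chr19:11623720-11623969 (minus), Fcer1a at chr1:173227230-173227479 (minus) and Il2ra at chr2:11642542-11642791 (plus).
Cpa3: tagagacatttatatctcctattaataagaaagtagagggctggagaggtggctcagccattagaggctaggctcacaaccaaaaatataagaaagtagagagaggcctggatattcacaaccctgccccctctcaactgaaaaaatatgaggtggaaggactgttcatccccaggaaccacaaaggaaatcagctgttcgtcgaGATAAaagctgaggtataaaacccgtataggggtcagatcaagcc
Cd200r3: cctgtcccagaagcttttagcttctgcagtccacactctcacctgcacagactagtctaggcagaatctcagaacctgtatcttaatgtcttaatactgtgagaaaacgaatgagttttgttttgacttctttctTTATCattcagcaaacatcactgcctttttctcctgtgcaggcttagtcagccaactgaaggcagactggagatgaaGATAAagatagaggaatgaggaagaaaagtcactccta
Prss34: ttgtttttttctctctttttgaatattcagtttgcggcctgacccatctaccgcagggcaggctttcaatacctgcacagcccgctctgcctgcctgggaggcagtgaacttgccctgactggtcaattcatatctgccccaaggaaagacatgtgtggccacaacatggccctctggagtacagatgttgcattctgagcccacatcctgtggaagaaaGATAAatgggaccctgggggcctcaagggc
Ms4a2: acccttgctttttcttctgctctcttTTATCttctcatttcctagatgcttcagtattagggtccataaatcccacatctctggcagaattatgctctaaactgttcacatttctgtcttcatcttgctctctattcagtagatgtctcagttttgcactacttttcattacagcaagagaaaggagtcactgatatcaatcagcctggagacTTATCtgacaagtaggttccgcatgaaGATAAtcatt
Fcer1a: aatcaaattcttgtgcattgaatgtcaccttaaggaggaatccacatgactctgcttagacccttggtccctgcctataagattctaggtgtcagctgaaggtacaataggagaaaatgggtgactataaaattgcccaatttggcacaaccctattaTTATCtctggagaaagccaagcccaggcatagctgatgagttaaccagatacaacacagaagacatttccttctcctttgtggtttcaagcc
Il2ra: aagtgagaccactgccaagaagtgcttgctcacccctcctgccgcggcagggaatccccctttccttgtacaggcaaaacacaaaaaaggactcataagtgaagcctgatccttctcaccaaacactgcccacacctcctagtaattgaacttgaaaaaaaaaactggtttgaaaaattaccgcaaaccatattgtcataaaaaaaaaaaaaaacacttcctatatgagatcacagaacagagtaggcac

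All 10 genes had an entry, and 5 of them held a match on either strand: 1 in Cpa3 (45 bases before the start site), 1 in Prss34 (30 bases), 1 in Fcer1a (92 bases), 2 in Cd200r3 (115 and 38 bases) and 3 in Ms4a2 (224, 37 and 10 bases). No match to GATAA or TTATC lay in these windows of Il2ra, Mcpt8, Hdc, Gata2 or Kit. Other letters after GATA were not searched, and the Hdc window holds GATAG. Of all 32851 RefSeq stretches of the same length, 22.6% held a match. This is a share of stretches, of which the 10 genes have 12. The letters alone say nothing about binding.

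The cells were also grouped into 27 clusters by all other variable genes, with the 10 genes left out. Cluster 25 (81 DMSO and 136 DAB cells) held 92 of the 99 Mcpt8-high cells and was the highest cluster for 8 of the 10 genes. Its other cells were not Mcpt8-high. A Mcpt8 UMI was found in 64.2% and 60.3% of the cluster's cells, and a Prss34 UMI in 65.4% and 52.2%. All 10 basophil markers were raised there, most of them genes of the 10 themselves, and its leading genes were Prss34, Mcpt8, Prg2, Cpa3, Ctsg and Cyp11a1. Prg2 and Epx, eosinophil granule genes, were also among the first 10, and which cells of the cluster hold them was not tested. It held 94.5% of all Mcpt8 UMIs, 95.1% of Prss34, 95.4% of Fcer1a and 86.6% of Ms4a2, but 55.0% of Cpa3, 17.8% of Hdc, 17.6% of Gata2 and 15.7% of Cd200r3 UMIs. The next cluster had a mean level 419-fold lower for Mcpt8, 229-fold lower for Prss34 and 30.9-fold lower for Cpa3, and 8.28-fold, 7.74-fold and 5.03-fold lower for Gata2, Hdc and Cd200r3.

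Mcpt8-low Il2ra-positive cells did not form a cluster of their own and lay in 18 of the 27 clusters. The most, 286 of 462, were in cluster 0, a large unnamed cluster of 878 DMSO and 994 DAB cells led by Mmp12, Ccdc80 and Lpl, where they were 39 DMSO and 247 DAB cells. Cluster 8, mature monocyte-like with high MHC class II genes, held 17 DMSO and 26 DAB cells, and cluster 19, led by Retnla and Ly6g, held 6 and 34. Cluster 0 took 9.72% of DMSO cells and 9.49% of DAB cells, so its size did not rise with that of the gate. Within it the genes differed: Gata2 had 35.8 CPM with DMSO and 124 CPM with DAB (log2 ratio 1.79, 1.66 to 1.93), Hdc 11.1 and 227 CPM (4.35, 4.13 to 4.59), Cd200r3 39.7 and 130 CPM (1.72, 1.59 to 1.85) and Il2ra 33.9 and 198 CPM (2.55, 2.41 to 2.68). A Gata2 UMI was found in 19.2% and 53.9% of its cells, an Hdc UMI in 6.95% and 53.6% and an Il2ra UMI in 13.3% and 43.5%. Cpa3 had 30 and 936 UMIs there (4.50, 3.97 to 5.07), in 0.456% and 3.62% of cells. Mcpt8 had 2 and 48 UMIs (4.12, 2.19 to 7.21), Ms4a2 0 and 21, Kit 0 and 17, Prss34 5 and 3, and Fcer1a none. Over the 25 clusters in which both libraries had 100 cells or more, Hdc was higher with DAB in 22 of the 23 with at least 20 UMIs, Gata2 in 16 of 20 (lower in 2), Il2ra in 15 of 17, Cd200r3 in 13 of 18 (lower in 1), Kit in 5 of 16 (lower in 3) and Cpa3 in 4 of 6 (lower in 1). Mcpt8 was higher in 4 of 4, Prss34 in 3 of 3 and Ms4a2 in 1 of 1, and Fcer1a reached 20 UMIs in none. For Mcpt8 and Prss34 these counts rest on few cells. In clusters 6, 10 and 24, those of Prss34, 0.682%, 0.466% and 2.5% of DAB cells held a UMI of it. Clusters 0, 6, 10 and 24, those of Mcpt8, held 2, 2, 1 and 1 of the DAB Mcpt8-high cells. All clusters come from the same 2 libraries, and the share over all genes was not computed for these counts.

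**Figure D4:**
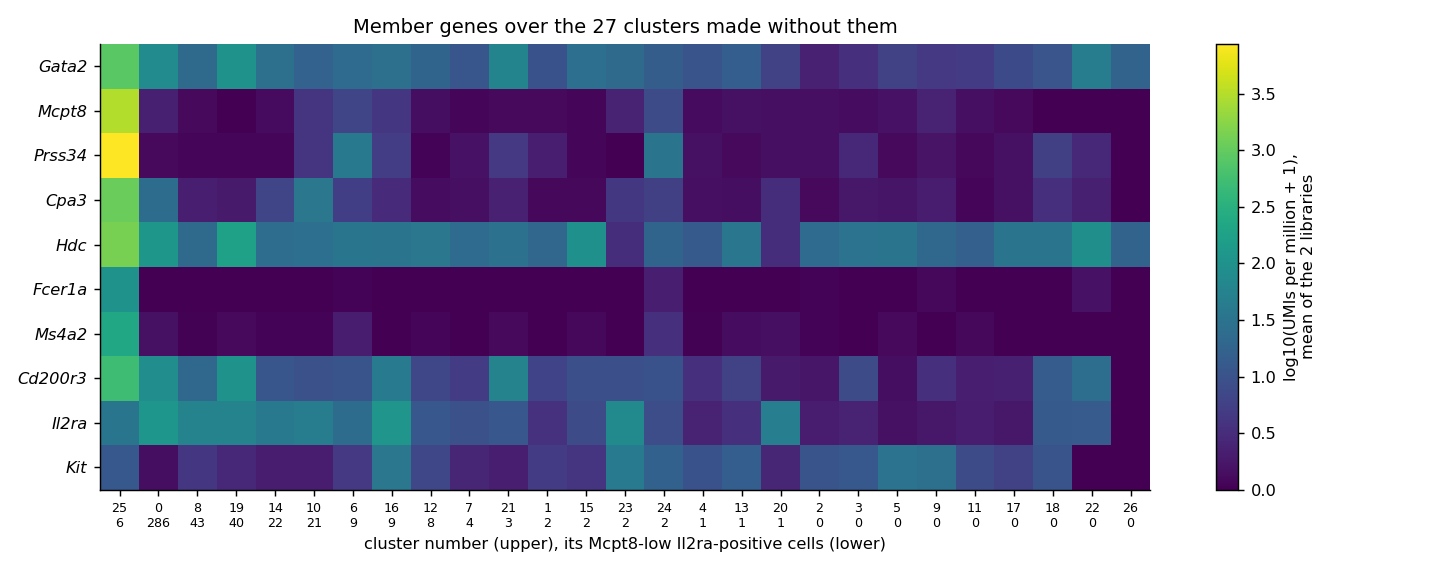
Level of each gene in the 27 clusters, as log10 of CPM plus 1, averaged over the libraries; the numbers under each column are the cluster and its Mcpt8-low Il2ra-positive cells. Cluster 25, first from the left, is highest for all genes but Il2ra and Kit, and cluster 0, with 286 of the 462 cells, has lower levels of Gata2, Hdc and Cd200r3 than cluster 25 and a higher level of Il2ra.

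Il2ra and Kit were spread in another way. With DMSO, Il2ra was highest in the activated dendritic cell-like cluster (84.5 CPM, and 67.9 CPM with DAB) and in cluster 8 (50.9 and 62.5 CPM). With DAB it was highest in cluster 0 and in cluster 16, an unnamed cluster led by Gm26917 (187 CPM, and 38.2 CPM with DMSO). The B cell-like cluster had 31.0 and 64.8 CPM. Kit was highest with DMSO in cluster 16 (31.6 CPM, and 39.8 CPM with DAB) and in intermediate granulocyte-like cells (31.6 and 30.02 CPM). With DAB it was highest in the activated dendritic cell-like cluster (59.3 CPM, and 20.1 CPM with DMSO, log2 ratio 1.56, 1.09 to 2.05) and in cluster 9 (43.4 and 11.1 CPM). Cluster 25 had 8 and 11 Kit UMIs (14.5 and 8.01 CPM with DMSO and DAB). Of mature PMN-like cells, 4.52% held a Kit UMI with DMSO and 3.09% with DAB.

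The defining genes of mast cells were at or near 0. Tpsab1, Mcpt4 and Mrgprb2 had no UMI in any of the 3 groups of either library, and the chymase Cma1 had 1 and 2 UMIs in Mcpt8-high cells. The tryptase Tpsb2 had 1 and 7 UMIs in the first gate, and 33 UMIs of a single DAB cell in the second. Mitf, a factor of mast cells that macrophages also express, had 52.4 and 33.1 CPM in the second gate and 0 and 14.6 CPM in the first. Both gates lay under the remaining cells, which had 85.3 and 40.1 CPM of Mitf. Of the genes known from mast cells, those found at a high level here were Cpa3, Gata2, Hdc, Slc18a2 and the IgE receptor chains, which basophils also express.

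Outside the Mcpt8-high gate, 6 DMSO and 39 DAB cells had at least 10 Cpa3 UMIs with fewer than 10 of Mcpt8, a group described because of the Cpa3 result above and set after seeing the data. They lay in 6 clusters in each library, with 1 and 10 in cluster 0, 1 and 11 in cluster 10 and 1 and 14 in cluster 25. Their median depth was 19868 and 26067 UMIs. A Gata2 UMI was found in 5 and 33 of them, an Hdc UMI in 5 and 29, a Cd200r3 UMI in 5 and 30 and an Il2ra UMI in 3 and 27, but a Prss34 UMI in 2 and 5, an Ms4a2 UMI in 1 and 12 and a Kit UMI in 0 and 1. Cyp11a1, the first enzyme of steroid synthesis, was found in all of them, at 806 and 578 CPM. Summed over the group, Prss34 still had 234 and 443 CPM and Ms4a2 60.3 and 50.1 CPM, beside 1.29 and 7.35 and 0.244 and 0.777 CPM in the remaining cells. A Mcpt8 UMI was found in 2 and 8 cells of the group and a Slc18a2 UMI in 4 and 15. Tpsb2 had 33 UMIs in 1 DAB cell of it.

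DAB was also compared with DMSO within the groups of cells. In Mcpt8-high cells, 4 of the 9 genes with at least 20 UMIs were higher with DAB and 2 were lower, where 12.3% of 5901 genes were higher and 11% were lower. Cpa3 had a log2 ratio of 1.84 (1.64 to 2.05), Fcer1a 0.62 (0.11 to 1.16), Cd200r3 0.59 (0.37 to 0.82) and Il2ra, from 1 DMSO UMI, 3.99 (1.41 to 9.34). Mcpt8 had -0.57 (-0.65 to -0.49) and Gata2 -0.66 (-0.83 to -0.48), while Hdc (0.08), Ms4a2 (0.19) and Prss34 (-0.26) were under the size of 0.5. Mcpt8 sets this gate by at least 10 raw UMIs, which the deeper DAB cells pass at a lower CPM. The lowest Mcpt8-high cell had 1638 CPM of Mcpt8 with DMSO and 257 CPM with DAB. DAB cells of 43908, 47960 and 54404 UMIs weigh more on these ratios than other cells. They held 58, 14 and 14 Mcpt8 UMIs, and 7, 11 and 34 Gata2 UMIs. Ratios without them were not computed, and the calls of Mcpt8 and Gata2 as lower may depend on these cells. In the Mcpt8-high cells other markers differed as well, and their part in the result was not tested. The eosinophil list summed to 108 CPM with DMSO and 582 CPM with DAB, of which Prg2 gave 91.0 and 563 CPM, and the mature monocyte list to 248 and 1005 CPM. The granulocyte progenitor list, with Ctsg, summed to 2102 and 2106 CPM.

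In Mcpt8-low Il2ra-positive cells, Hdc and Cpa3 were higher with DAB, 2 of the 6 genes with at least 20 UMIs, and none was lower, where 7.45% of 10771 genes were higher and 15% were lower. Hdc had a log2 ratio of 2.75 (2.44 to 3.08) and Cpa3, on 3 DMSO and 40 DAB cells, 1.82 (1.44 to 2.22). Gata2 (-0.08, -0.25 to 0.09), Cd200r3 (-0.29) and Il2ra (0.38) lay within 0.5 of 0, the latter pair after gating on the gene. Mcpt8, from 1 DMSO UMI, had 1.46 (-1.19 to 6.83). The mature monocyte list summed to 13655 CPM in the DMSO and 4748 CPM in the DAB cells of this gate, and the activated dendritic cell list to 800 and 56.1 CPM, and their part in the result was not tested. In the remaining cells the log2 ratios ran from 0.77 (Cd200r3) to 2.84 (Cpa3), except for Kit, which had 0.16 (0.01 to 0.31).

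**Figure D5:**
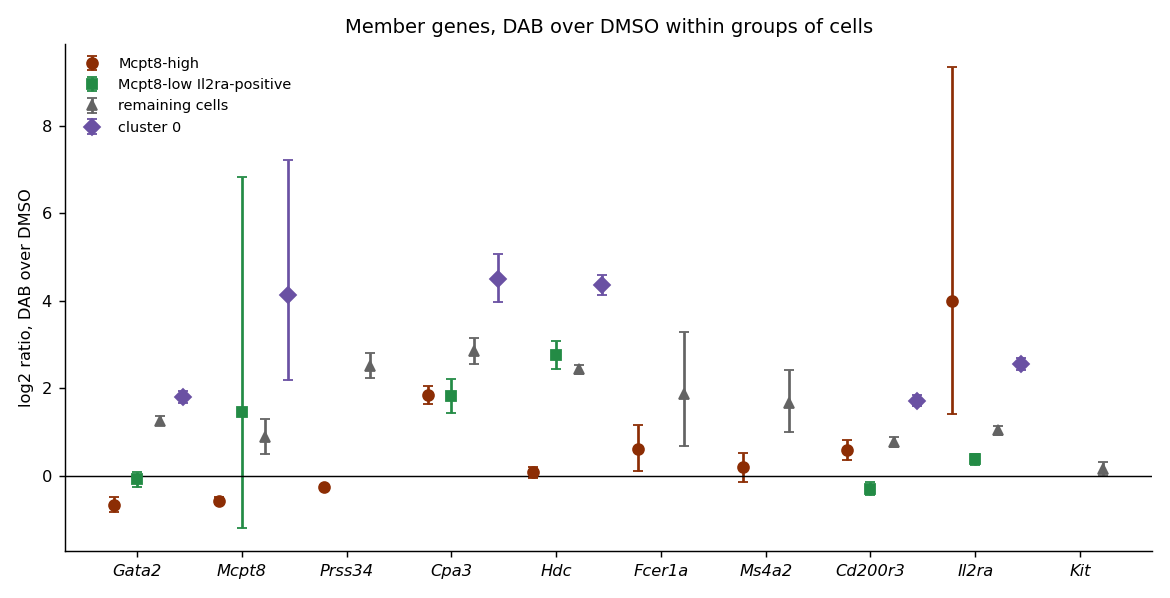
Log2 ratio of DAB over DMSO of each gene with at least 20 UMIs and a UMI in each library, within Mcpt8-high cells, Mcpt8-low Il2ra-positive cells, the remaining cells and cluster 0, with exact 95% intervals. Hdc lies at 0.08 in Mcpt8-high cells and at 2.75, 2.43 and 4.35 in the other groups, and Gata2 at -0.66, -0.08, 1.26 and 1.79.

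The genes most like the 10 in pattern were those with the largest share of their UMIs in a gate, among 13309 genes with at least 100 UMIs. Mcpt8-high cells held 0.482% of all UMIs. Mcpt8 (94.7%), Prss34 (93.5%), Fcer1a (80.4%) and Ms4a2 (72.2%) led this order, followed by Rnase12 (68.3%), Grm6 (47.8%), Ptpn13 (45.3%), Igfbp7 (44.1%) and Csrp3 (41.2%), with Cpa3 as number 10 (40.3%). Hdc, Cd200r3 and Gata2 came at 48, 53 and 54, with 15.1%, 12.9% and 12.9%. Mcpt8-low Il2ra-positive cells held 5.47% of all UMIs, and the order there was Mmp7 (94.1%), Cdkn1c (70.3%), Il2ra (57.0%), Il9r (51.1%), Alox15 (50.7%), Fcrls (48.8%), Gpr174 (48.5%), Fam3b (48.03%), Fgfr1 (47.0%) and Cd200r3 (46.8%). Cpa3, Gata2 and Hdc came at 26, 32 and 38 there. The shares pool the 69 DMSO and 393 DAB cells of the gate, and Mmp7 and Cdkn1c had no UMI in the DMSO cells. Gpr174 and Fgfr1 were also found in Mcpt8-high cells, at 8.28 and 17.3 CPM and at 13.8 and 81.0 CPM.

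Between the gates, the 10 genes that differed most towards Mcpt8-high cells were Prss34, Mcpt8, Ctsg, Ms4a2, Fcer1a, Mpo, Adgrg1, Npl, Igfbp7 and Sytl3. Ctsg, cathepsin G of granules, had 1727 and 1847 CPM in the first gate against 0 and 4.95 CPM in the second, and Mpo, myeloperoxidase, 229 and 95.6 CPM against 0 and 1.35 CPM. Towards Mcpt8-low Il2ra-positive cells they were Retnla, Mmp12, Lpl, Mgl2, Fn1, Clec4n, Ccl24, Itgax, Lyz2 and Ptgs1, genes known from macrophages and dendritic cells. Mmp12, the macrophage metalloelastase, had 2012 and 1194 CPM in the second gate and 2.76 and 7.97 CPM in the first, and Itgax, the integrin CD11c, 339 and 143 CPM against 0 and 1.33 CPM. Lyz2, lysozyme, had 1750 and 1050 CPM against 24.8 and 42.5 CPM.

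The pathways around the 10 genes were read from 7 lists of 112 genes, 7 of them members. Of 88 with at least 20 UMIs in the gates, 36 were at least 2-fold higher in Mcpt8-high cells in both libraries and 8 were lower, beside the 6.71% and 4.92% of all genes, whose median log2 ratio was 0.07 with DMSO and 0.16 with DAB. The 36 include the members Mcpt8, Prss34, Cpa3, Hdc and Gata2, and the 8 include Il2ra. Mcpt8 and Il2ra set the gates, and the counts without the members were not computed. Among proteases of mast cells and basophils, 4 of 5 were higher (Prss34, Mcpt8, Ctsg and Cpa3) and none was lower. Of these, only Ctsg is not a member. Of 10 genes of mediator synthesis and storage 5 were higher, with median log2 ratios of 1.33 and 0.88. They were Hdc, Slc18a2, the transporter that loads histamine into granules (113 and 110 CPM against 3.93 and 1.80), Cyp11a1 (1876 and 1454 CPM against 95.03 and 238.1), Srgn, the core of granule proteoglycans, and Ndst2, an enzyme of heparin synthesis. Ptgs1 and Ltc4s, of prostaglandin and leukotriene synthesis, were lower.

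Of 13 genes of IgE receptor signalling, 5 were higher in Mcpt8-high cells and none was lower (medians 0.19 and 0.57): the adaptors Lat, Lat2 and Gab2, the kinase Fyn and the phospholipase Plcg1. Lat had 99.3 and 139 CPM against 1.31 and 5.31 CPM. The kinases Lyn and Syk had log2 ratios of -0.16 and -0.27 with DMSO and -0.75 and -0.49 with DAB, and were not called. Of 18 lineage factors, 9 were higher, with medians of 1.07 and 1.19, among them Gata1 (46.9 and 37.2 CPM against 0 and 0.09), Cebpa (121 and 213 CPM against 10.5 and 6.66), Ikzf2 and Lmo4, and Mitf and Lmo2 were lower. Of 14 cytokine receptors, 4 were higher, with medians of 0.04 and 0.66: Il3ra, the receptor chain of the basophil growth factor interleukin-3 (262 and 271 CPM against 31.5 and 36.6), Il1rl1, the interleukin-33 receptor (168 and 213 CPM against 7.21 and 12.1), Il18r1 and Il18rap. Il2ra, Csf2rb and Csf2ra were lower. Il2rb, the beta chain that binds interleukin-2 together with Il2ra, had 0 and 15 UMIs in the second gate, while the common gamma chain Il2rg had 83.2 and 104 CPM there.

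Of 13 cytokines and chemokines, Il4, Il6, Osm and Ccl3 were higher in Mcpt8-high cells and none was lower (medians 2.37 and 0.57). Of 15 surface proteins, 5 were higher, with medians of 0.996 and 0.81: Itga2b, Itgb7, Cd63, Cd9 and Ptger3. Itgax alone was lower. Cd63, a granule membrane protein, had 1424 and 1691 CPM against 313 and 601 CPM.

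Genes next to the 10 on the chromosomes did not as a rule share their pattern. Of 60 neighbours, 3 coding genes to each side in the GENCODE annotation of GRCm38, 39 had at least 20 UMIs. Of these, 2 were carried by Mcpt8-high cells and 1 by Mcpt8-low Il2ra-positive cells, beside 1.03% and 0.134% of all 16371 genes. These were Ctsg beside Mcpt8 on chromosome 14, Dnajb8 beside Gata2 on chromosome 6 (48 UMIs in all) and Oosp1 near Ms4a2 on chromosome 19, named after their values were seen. Mcpt4, Mcpt2 and Mcpt9, on the other side of Mcpt8, had no UMI. Cd200r1 and Cd200r4, relatives beside Cd200r3 on chromosome 16, had 348 and 234 CPM and 160 and 175 CPM in Mcpt8-high cells, and 166 and 281 CPM and 124 and 244 CPM in Mcpt8-low Il2ra-positive cells. In the remaining cells they had 103 and 169 CPM and 25.9 and 65.7 CPM, so that neither reached 10-fold.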

How the data were processed

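MDSC cultures with DMSO or DAB gave 1 scRNA-seq library each. The deposited values are raw UMI counts per gene and barcode, which the authors made with Cell Ranger 7.0.0 on mm10, per the labels. Whether intronic reads were counted is not stated in the sources used here. A mitochondrial share above 10% removed 55 DMSO and 89 DAB barcodes. A further filter at 4 MADs for UMIs and detected genes removed no barcode, and doublets were removed by score against simulated doublets at 0.8% per 1000 cells (768 and 1065). Clusters were made from Pearson residuals without the 10 genes, aligned by mutual nearest neighbours, with leidenalg 0.10.2 at resolution 0.9. Ratios carry exact conditional binomial intervals and shares Clopper-Pearson intervals at 95%. Groups without a UMI were set to 3 counts for bounds. The files shared 152 barcodes before filtering.

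The members, gates and lists were chosen with earlier results of these data known. Named genes were the members, list genes, the 10 with the largest share of UMIs in each gate and the 10 that differed most between the gates in each direction. Calls were tested on simulated counts without clumping in single cells, with changes only in genes of many UMIs. This cannot speak for genes of few UMIs, or for genes such as Cpa3, whose UMIs in the second gate lay in few cells. Python 3.11.15, numpy 2.4.6 and scipy 1.17.1 were used. Sequences are from RefSeq (GRCm38.p6), and gene neighbours from the GENCODE annotation.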

Additional observations from a re-analysis of the deposited data

Results flagged for a closer look

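By summed UMIs, a pair of genes had ratios of DAB over DMSO of opposite sign between groups of cells. Gata2 had a log2 ratio of DAB over DMSO of -0.66 in Mcpt8-high cells and 1.26 in the remaining cells. Mcpt8 had -0.57 in Mcpt8-high cells, where the gate requires at least 10 UMIs per cell. It had 0.90 in the remaining cells, where the gate limits it to fewer than 10 UMIs per cell. The ratios in Mcpt8-high cells include the very deep DAB cells named above, whose part was not tested. By the median of single Mcpt8-high cells, Gata2 stood at 1274 CPM with DMSO and 957 CPM with DAB, and Mcpt8 at 5021 and 3605 CPM. With 1 library per condition, neither difference between the groups of cells was tested.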

How the results depend on the processing

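No paired analysis was possible because each condition has 1 library. The count of 7 genes higher with DAB, the 8 genes carried by Mcpt8-high cells and the ratios of gate shares kept their size under the other gates and filters run. The shares themselves moved: with at least 1 UMI of Il2ra and of Cd200r3 the second gate was 1.47% of DMSO and 5.66% of DAB cells (133 and 593), and with at least 3 it was 0.509% and 2.85%, beside 0.764% and 3.75%. With cluster 0 in place of the second gate, its share with DAB was 0.976-fold that with DMSO, beside 4.91-fold for the gate. The count of 2 shared genes did not keep its size either. It was 1 (Cd200r3) with at least 3 UMIs of Il2ra and of Cd200r3, 1 with gates on thinned cells and 1 without cells of 10 or more Cpa3 UMIs. It was 0 with clusters 25 and 0 in place of the gates, where cluster 0 carried 0 genes, and 4 at 5-fold, where Mcpt8-low Il2ra-positive cells carried 5. With gates on thinned cells, 4 genes in place of 7 were higher in Mcpt8-high cells, on 1 DMSO cell in the second gate. That count was 8, with Cd200r3 added, at a Mcpt8 limit of 20 UMIs and with at least 1 UMI of Il2ra and of Cd200r3, and 9, with Kit too, with clusters. For some genes without a UMI in the 1 DMSO cell of the second gate on thinned cells, the ratio could not be given a value. The largest cluster of Mcpt8-low Il2ra-positive cells held 51.7% of them at Leiden resolution 1.5 and 53.0% with the 10 genes kept in the clustering, beside 61.9%. A mean over cells moved the log2 ratio of DAB over DMSO for Hdc to 1.76 and for Cd200r3 to 1.58, in the same direction. With 1 library per condition, differences between cultures cannot be told apart from the treatment, and groups of 43 to 69 cells limit the DMSO values.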
